A study of Mus musculus with 33 samples.

Results

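Cxcl1, Cxcl2 and Cxcl5 are small secreted chemokines that draw neutrophils into inflamed tissue, and their RNA was followed over all 33 arrays of a study of mouse macrophages and fibroblasts. Each of these 3 genes was read by 1 probe on each array type, found by its annotated symbol. They are 3 genes beside the 9161 genes tested in bone marrow-derived macrophages (BMDM) and the 9109 tested in embryonic fibroblasts (MEF), a gene being tested when 2 or more arrays of its cell type had a detection p below 0.01, which is here called above background. In macrophages Cxcl1 stood above background on 13 of 23 arrays, Cxcl2 on 14 and Cxcl5 on 0, so 2 of the 3 genes were tested there. In fibroblasts all 3 were tested, with Cxcl1 above background on 10 of 10 arrays, Cxcl2 on 6 and Cxcl5 on 8. The genes were picked as a group for opposite differences between cells without p50 and wild-type cells with CpG and with LPS. As means over the times in macrophages, this held for Cxcl1. Cxcl2 was higher without p50 with both agents (2.10 and 0.46 log2). Because of this choice the p50KO minus WT differences with CpG and LPS in macrophages are given as a description with no test.

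The study, by its title, asks how the NF-kB subunit p50 keeps innate responses specific. All cells carried the C57BL/6 background. The tested macrophage groups were p50KO cells (10 arrays) left unstimulated or given CpG DNA, LPS or interferon beta (IFNb) for 1, 3 or 8 h, and IFNARKO cells, which lack the type I interferon receptor, left unstimulated or given LPS for 3 h (2 arrays). They were set against wild-type (WT) macrophages given the same agents for the same times (11 arrays). Fibroblasts were p50KO (4 arrays) or WT (6 arrays), left unstimulated or treated with LPS over 1, 3 and 8 h, with a further WT array after 8 h of IFNb. Macrophages had been grown in medium conditioned by L929 cells, and the fibroblasts were early-passage cultures. A genotype had a single array in a condition, apart from unstimulated WT, which had 2 in each cell type. The alleles behind p50KO and IFNARKO, the ages of the animals and whether arrays came from separate cultures are not given in the sources used here, so the p-values measure the spread between these arrays, which may be technical.

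Cxcl1 (also called KC), Cxcl2 (MIP-2) and Cxcl5 (LIX) belong to the CXC chemokines with a glutamate-leucine-arginine motif, and all act on the receptor Cxcr2 of neutrophils. Macrophages and fibroblasts make them soon after microbial products engage Toll-like receptors, LPS through Tlr4 and CpG DNA through Tlr9. Their genes are classical NF-kB targets, and their messages are short-lived. The p50 protein has no transactivation domain of its own, so that it can activate genes as a partner of RelA or c-Rel and can also occupy NF-kB sites as a homodimer.

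The 3 genes lie close together on chromosome 5 of the mouse genome (GRCm38.p6), Cxcl5 at chr5:90759298-90761625, Cxcl1 at chr5:90891245-90893121 and Cxcl2 at chr5:90903899-90905938. The promoters of 2 of the 3 members were matched in RefSeq, and the 250 bases before each start are shown because both hold the same NF-kB sequence. They lie at chr5:90890995-90891244 and chr5:90903649-90903898 on the plus strand, and capitals mark the letters GGGAATTTCC, the match to the NF-kB consensus that both windows hold on the plus strand.
Cxcl1: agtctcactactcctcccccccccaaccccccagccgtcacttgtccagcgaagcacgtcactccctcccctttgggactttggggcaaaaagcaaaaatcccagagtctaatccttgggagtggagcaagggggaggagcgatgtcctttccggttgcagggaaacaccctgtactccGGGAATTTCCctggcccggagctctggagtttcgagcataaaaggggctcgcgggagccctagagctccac
Cxcl2: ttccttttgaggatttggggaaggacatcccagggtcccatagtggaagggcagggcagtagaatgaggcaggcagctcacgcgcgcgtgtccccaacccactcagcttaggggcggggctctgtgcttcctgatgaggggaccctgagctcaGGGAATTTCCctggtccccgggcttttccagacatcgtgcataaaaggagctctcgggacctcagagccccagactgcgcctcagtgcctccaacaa
The marked letters begin 71 bases before the start of Cxcl1 and 97 bases before that of Cxcl2. They were found in 28 of 32851 promoters of the same length (0.0852%), when both strands were searched. A match to the NF-kB consensus on either strand was far more common, in 7.25% of promoters, and each of these windows holds another one on the minus strand that overlaps the marked letters. The promoter of their neighbour Cxcl3, at chr5:90786101-90788093, held them as well, 73 bases before its start. Such matches describe the letters and do not show binding.

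Several features of the arrays touch the results below. Summed intensity per macrophage array ran between 7433000 and 15020000, and between 10456 and 12273 probes stood above background. WT LPS arrays of fibroblasts and their unstimulated array had 8266 to 8959 such probes, against 11735 to 12389 on the p50KO fibroblast arrays. The unstimulated p50KO macrophages had a single array, which belongs to the CpG series, whereas the p50KO arrays with LPS and IFNb come from another series. No check of the genotype labels was made on the p50 gene itself, which is not analysed here. The p50KO array labelled LPS 1 h correlated more closely over all 9161 genes with the WT array labelled LPS 3 h (r = 0.989) than with the WT array of its own label (r = 0.951). Over 6 immediate-early genes (Fos, Jun, Egr1, Atf3, Zfp36 and Dusp1) its root mean square distance to the WT arrays was 0.49 log2 at 3 h and 2.89 at 1 h. The p50KO array labelled LPS 3 h correlated best with the WT array labelled 8 h (r = 0.983, against 0.95 at its own time), while over the immediate-early genes it was nearest to its own time (0.70, against 1.25 at 8 h). Differences between the genotypes with LPS in macrophages are also given without the arrays labelled 1 h.

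Cell type markers fitted the labels in part. The 4 macrophage markers on the array stood above background on all 23 macrophage arrays, and of the 9 fibroblast markers on it Col1a2 on 2 of 23 arrays, Dcn on 1 and the others, Col1a1 and Col3a1 among them, on 0. Granulocyte genes were present in the macrophage cultures, with S100a8 above background on 23 of 23 arrays at intensities of 993 to 8229. All 10 fibroblast markers stood above background on all 10 fibroblast arrays, and so did the macrophage genes Lyz2 (2125 to 10260) and Adgre1 (190 to 703), while Itgam stood above background on 0 of 10. Markers of epithelial and endothelial cells summed to at most 396 on macrophage arrays and 459 on fibroblast arrays, and those of lymphocytes to at most 539 and 340. Some of them still stood above background. On the 23 macrophage arrays these were Cd79b on 22, Krt8 on 13, Kdr on 12, Cdh1 on 11 and Pecam1 on 1. On the 10 fibroblast arrays they were Ms4a1 on 4 and Krt18 and Cdh1 on 1 each. The other markers of these lists on the arrays were above background on 0. In such bulk samples fewer cells of a type and less RNA per cell cannot be told apart.

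In WT macrophages Cxcl1 and Cxcl2 were at background without a stimulus and had their highest WT levels after 1 h of LPS, and both were lower at 8 h. The intensity of Cxcl1, a main early neutrophil attractant of mice, was 12420 at 1 h, 6705 at 3 h and 917 at 8 h with LPS, against 56.5 and 48.3 on the 2 unstimulated arrays. Against the unstimulated array of the same series these were at least 471-fold, 245-fold and 40.9-fold higher, the lowest signal above background standing in for the unstimulated level. Cxcl2, the closely related MIP-2, had 11020, 3890 and 1233 with LPS, against 64.3 and 39.4 unstimulated, which gave at least 429-fold, 147-fold and 53.4-fold. Every WT array with LPS lay far above both unstimulated WT arrays, and how many other genes did the same was not counted. The WT level at 8 h was 11.5-fold lower than at 1 h for Cxcl1 and 8.04-fold lower for Cxcl2, each from 1 array per time. Cxcl1 and Cxcl2 are paralogues, and whether the probe of one also binds the RNA of the other was not tested.

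Over both genotypes the response to LPS passed the test for both genes at each of the 3 times. Cxcl1 rose by 7.33, 6.19 and 4.97 log2 at 1, 3 and 8 h (SE 1.31 each, limma adjusted p = 0.00373, 0.00241 and 0.00642, 2 arrays with LPS and 3 without). Cxcl2 rose by 7.73, 7.18 and 6.41 log2 (SE 0.68 each, limma adjusted p = 5.56e-06, 1.01e-05 and 1.84e-05). Of all genes tested 3.66%, 17.4% and 19.6% rose at these times, and 10.7%, 43.4% and 47.4% passed in either direction. The unstimulated arrays of these fits come in part from the CpG series and the LPS arrays do not, so response and array series are partly mixed. Between the 2 unstimulated WT arrays, which come from different series, 6.08% of genes differed at least 2-fold. With the array series as a block the rise of Cxcl1 at 1 h was 7.63 log2 and no longer passed (limma adjusted p = 0.0823).

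**Figure D1:**
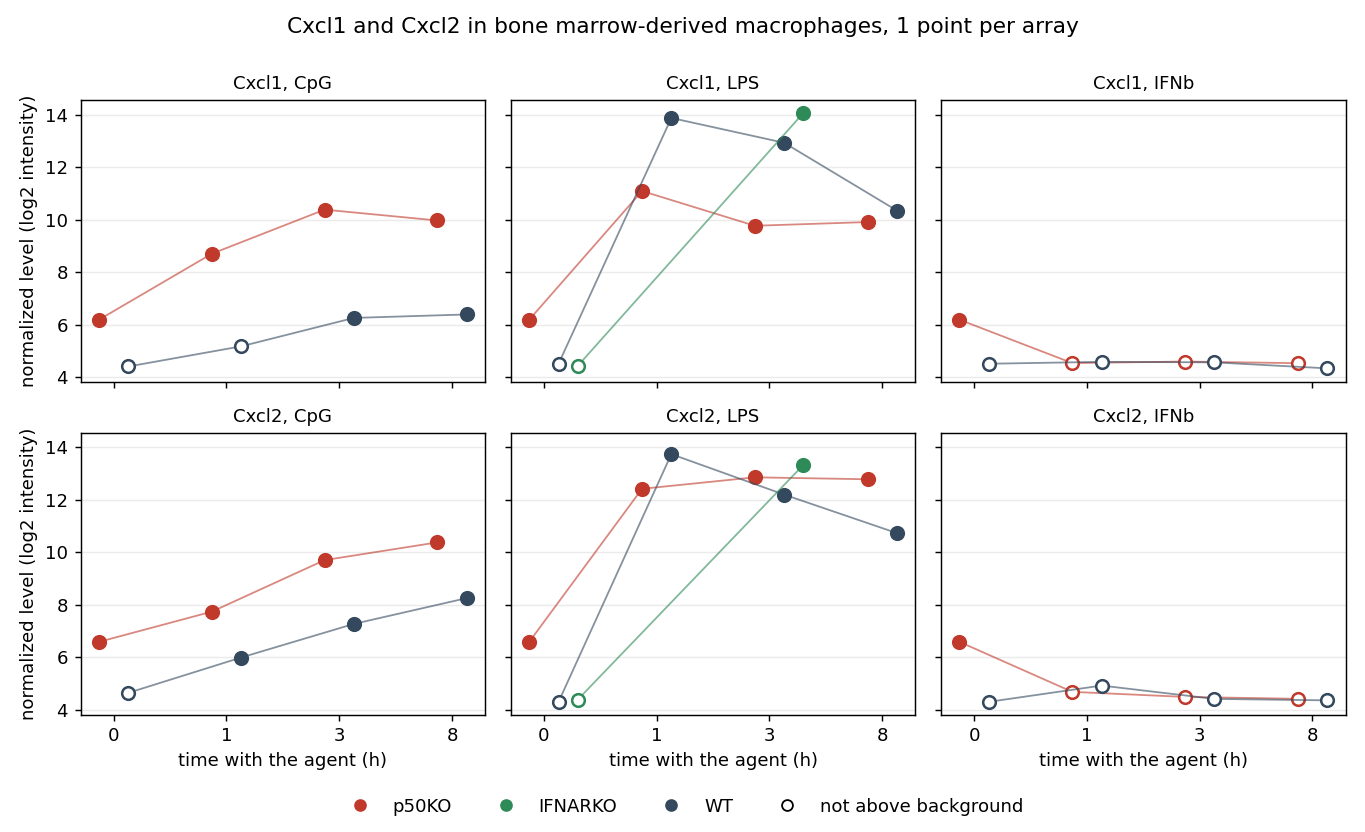
Normalized level (log2 intensity, vertical axis) of Cxcl1 (top) and Cxcl2 (bottom) against time with CpG, LPS or IFNb, 1 point per array, with p50KO drawn left of WT and IFNARKO at 3 h of LPS. Open points were not above background, and the single unstimulated p50KO array is repeated in each panel. With CpG all p50KO points lie above WT. With LPS the Cxcl1 points of p50KO lie below WT at each time after the agent, and the unstimulated point lies above. With IFNb no stimulated point is above background.

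With CpG, Cxcl1 was far brighter in p50KO macrophages than in WT macrophages at every time. Its intensity was 629, 1632 and 1281 in p50KO cells at 1, 3 and 8 h, against 76.5, 134.9 and 146.9 in WT cells, where the 1 h value was not above background. No p50KO value overlapped the WT values. These are 3 times with 1 array each, and how many other genes did the same was not counted. Nothing is read from it, since the genes were picked on this contrast. On the normalized log2 scale the levels were 8.70, 10.38 and 9.97 in p50KO cells and 5.18, 6.26 and 6.39 in WT cells. The p50KO level was at least 10.6-fold that of WT at 1 h, 17.4-fold at 3 h and 12-fold at 8 h. Over the 3 times the difference was 3.74 ± 0.33 log2 (SD, n = 3 times, with WT above background at 2 of the 3).

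Cxcl2 was also higher in p50KO cells with CpG, by less. Its intensity was 336, 1032 and 1688 in p50KO cells, against 113.8, 247.4 and 461.2 in WT cells at 1, 3 and 8 h. At the same time every p50KO value was above its WT value, although the p50KO value at 1 h lay below the WT value at 8 h. The p50KO level was 3.36-fold, 5.39-fold and 4.36-fold that of WT, a difference of 2.10 ± 0.34 log2 (SD, n = 3 times). Of the 9161 genes, 0.317% passed the test for a p50KO difference with CpG in either direction and 0.928% were at least 2-fold higher in p50KO cells, and nothing is read from these shares since the genes were picked on this contrast.

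Before any stimulus the single p50KO array already showed both messages above background. Cxcl1 had an intensity of 119.8 there, against 56.5 and 48.3 on the WT arrays, neither of which was above background. Cxcl2 had 149.9, against 64.3 and 39.4. Against the WT array of the same series the p50KO array was at least 1.81-fold higher for Cxcl1 and at least 2.39-fold for Cxcl2. It was the only one of the 4 unstimulated macrophage arrays with either gene above background. The other array series has no unstimulated p50KO array. Its p50KO arrays with IFNb had neither gene above background, at 42.3 to 44.9 for Cxcl1 and 38.3 to 49.2 for Cxcl2. The raised level was thus seen on 1 array of 1 series.

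Measured from the unstimulated array of the same genotype, Cxcl1 in p50KO macrophages stood 5.70-fold, 18.3-fold and 13.7-fold higher with CpG at 1, 3 and 8 h (2.51, 4.19 and 3.78 log2). In WT macrophages it stood at least 1.90-fold higher at 3 h and 2.08-fold at 8 h. For Cxcl2 the p50KO inductions were 2.22-fold, 8.65-fold and 13.8-fold, against at least 1.58-fold, 3.84-fold and 7.59-fold in WT cells. The WT values are bounds, since the unstimulated WT array was not above background, so the inductions of the genotypes are not set against each other. Each of these inductions rests on 1 array per time and was not tested.

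Averaged over both genotypes, Cxcl2 rose with CpG at 8 h by 3.97 log2 (SE 0.68, limma adjusted p = 0.0158), when 0.415% of genes passed the test, all of them upward. At 3 h its 3.14 log2 did not pass (limma adjusted p = 0.211), when 0.131% of genes did, and at 1 h 0 of 9161 genes passed in limma, with 55 at an unadjusted p under 0.05. The 8 h call of Cxcl2 was lost under 6 of 14 alternatives, among them leaving out either unstimulated WT array (limma adjusted p = 0.063 and 0.0842). Cxcl1 differed by 1.78, 3.16 and 3.02 log2 at 1, 3 and 8 h and did not pass at any time (SE 1.31, limma adjusted p = 1, 1 and 0.885). That standard error comes from the spread of the genotype difference over conditions, which for Cxcl1 took both signs.

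With LPS the sign for Cxcl1 was the other way. The p50KO arrays had intensities of 1832, 477 and 1031 at 1, 3 and 8 h, against 12420, 6705 and 917 in WT cells. On the normalized log2 scale these were 11.09, 9.77 and 9.91 in p50KO cells and 13.88, 12.93 and 10.35 in WT cells. The p50KO level was 6.88-fold lower at 1 h, 8.95-fold lower at 3 h and 1.36-fold lower at 8 h, a mean difference of -2.13 ± 1.48 log2 (SD, n = 3 times). At 8 h the 2 values were close, and the raw intensity was slightly higher in p50KO cells. The p50KO array labelled 1 h (11.09) was also below the WT array labelled 3 h (12.93), which it resembled, and the array labelled 3 h (9.77) below WT at 8 h (10.35). Without the arrays labelled 1 h the difference was -1.80 log2. Over the unstimulated p50KO array, which came from the other array series, Cxcl1 stood 29.9-fold, 11.9-fold and 13.2-fold higher in p50KO cells at 1, 3 and 8 h.

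Cxcl2 did not share that pattern. Its intensity with LPS was 4821, 5230 and 9063 in p50KO cells, against 11020, 3890 and 1233 in WT cells at 1, 3 and 8 h. Only at 1 h was p50KO lower, by 2.5-fold, while at 3 h it was 1.58-fold and at 8 h 4.14-fold higher. The p50KO array labelled 1 h (12.42 log2) lay slightly above the WT array labelled 3 h (12.20), which it resembled. The mean difference of 0.46 ± 1.69 log2 (SD, n = 3 times) is smaller than its own spread over time. Without the arrays labelled 1 h it was 1.35 log2, and without the 8 h arrays it was -0.33 log2. The p50KO values stayed within a narrow band while the WT values declined with time, so that Cxcl2 in p50KO cells was 1.29-fold higher at 8 h than at 1 h. For Cxcl1, p50KO cells had a 2.27-fold lower level at 8 h than at 1 h, against 11.5-fold in WT cells.

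**Figure D2:**
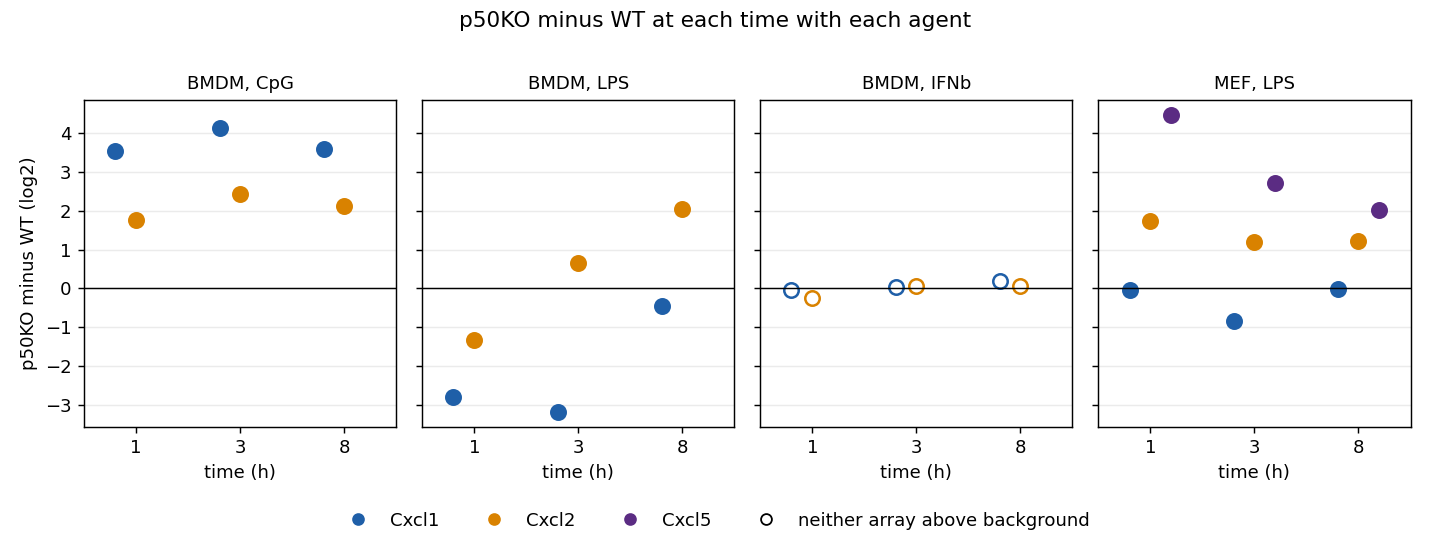
Difference p50KO minus WT (log2, vertical axis) at 1, 3 and 8 h with each agent, 1 point per gene and time, from 1 array per genotype. Open points had neither array above background. Cxcl1 lies at 3.53 to 4.12 with CpG and at -3.16 to -0.44 with LPS in macrophages, Cxcl2 changes sign over time with LPS, and Cxcl5 in fibroblasts lies at 2.01 to 4.45.

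Among all 9161 genes, 3 were at least 2-fold higher in p50KO macrophages with CpG and at least 2-fold lower with LPS, as means over the 3 times (0.0327%). Among them were Cxcl1 (3.74 and -2.13 log2) and the immediate-early transcription factor Egr1 (1.25 and -1.60). The reverse combination held for 0 genes. Nothing is read from the share of 0.0327%, since the genes were picked on these contrasts. A 2-fold higher p50KO level with CpG was seen for 0.928% of genes. A 2-fold lower p50KO level with LPS was seen for 2.01% of genes, and 4.89% passed the test with LPS in either direction. The value of Egr1 rests on the arrays labelled LPS 1 h, with 7.43 log2 in p50KO cells and 12.51 in WT cells, and without them its difference with LPS was 0.14 log2. Without these arrays 3 genes again met both limits (0.0327%), of which 2 had done so with all times. Cxcl1 (-1.80 log2 with LPS) was among them and Egr1 was not, while Socs3 (1.22 log2 with CpG and -1.01 with LPS) joined them, a gene named here after its values were seen. Cxcl2 was outside this group, and Cxcl5 was above background on none of the macrophage arrays.

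**Figure D3:**
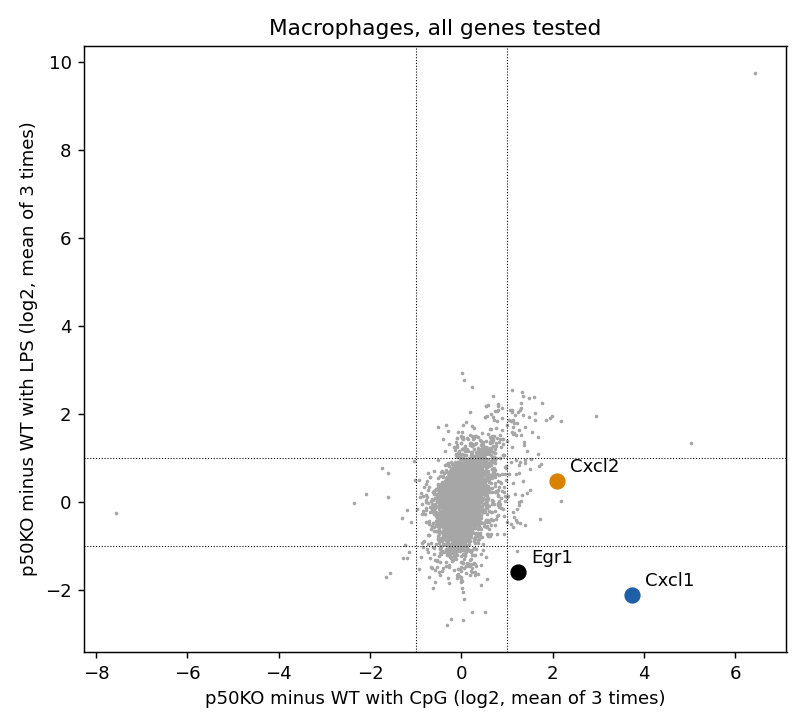
Difference p50KO minus WT in macrophages with LPS (vertical axis, log2, mean of 3 times) against that with CpG (horizontal axis, log2, mean of 3 times) for the 9161 genes tested, 1 grey point per gene. Dotted lines mark 2-fold, and the members were picked on these differences. Cxcl1 stands alone at the lower right, Egr1 lies just past both lines, and Cxcl2 is right of the CpG line and between the LPS lines.

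The granulocyte marker sums of these cultures moved with some of the groups. Summed over 11 genes they were 3183 to 3694 on the p50KO CpG arrays, against 1883 to 2354 on the WT CpG arrays. With LPS they were 5230 to 11300 on p50KO arrays and 7307 to 13160 on WT arrays, which overlapped. The genes S100a8 and S100a9 made up most of these sums. The part of the granulocyte markers in the Cxcl1 and Cxcl2 differences was not tested. The macrophage marker sums were 48530 to 56780 with CpG in p50KO cells and 59140 to 63540 in WT cells, and 29960 to 39680 with LPS in p50KO cells and 36720 to 41080 in WT cells.

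With interferon beta both genes were at background in both genotypes. Cxcl1 had intensities of 44.9, 44.1 and 42.3 in p50KO cells at 1, 3 and 8 h, against 49.6, 50.4 and 35.8 in WT cells, and Cxcl2 ran from 38.3 to 49.2 in p50KO cells and from 36.8 to 58.2 in WT cells. None of these 12 values stood above background. The p50KO difference over the 3 times was 0.06 log2 for Cxcl1 (SE 0.39, limma adjusted p = 1) and -0.04 for Cxcl2 (SE 0.44, limma adjusted p = 1), when 0.0327% of genes passed. Since both groups were at background these values set no level. The fitted responses to IFNb were between -0.96 and -0.54 log2 and did not pass for either gene at 1, 3 or 8 h (limma adjusted p from 0.427 to 0.863), when 0%, 0.786% and 0.0982% of genes did. These fits include the unstimulated p50KO array, which came from the CpG series and stood above background, so no fall is read from them. Against the unstimulated WT array of the same series, WT levels with IFNb differed by -0.18 to 0.07 log2 for Cxcl1 and 0.06 to 0.62 for Cxcl2, all at background.

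IFNARKO macrophages, which cannot respond to type I interferon, had the highest Cxcl1 signal of the 23 arrays after 3 h of LPS. The intensity was 16930 in IFNARKO cells, against 6705 in WT cells, and the unstimulated IFNARKO array was at background (42.2). Cxcl2 had 10640 in IFNARKO cells and 3890 in WT cells. On the normalized scale the IFNARKO levels were 2.19-fold and 2.18-fold those of WT, with 1 array each and no test, and 8.21% of genes were at least 2-fold higher on that array. Relative to their own unstimulated arrays Cxcl1 was at least 577-fold and Cxcl2 at least 347-fold higher in IFNARKO cells. In WT cells these were at least 245-fold and 147-fold. The lowest signal above background was 4.89 log2 on the unstimulated IFNARKO array and 5.00 on the WT array, so the bounds are not set against each other. Of the 614 genes (6.7%) at least 2-fold higher with LPS at 3 h in WT cells, 28.5% had an induction at least 2-fold lower in IFNARKO cells, and neither chemokine was among them. The interferon-type chemokines Cxcl9 and Cxcl10, which attract T cells through Cxcr3, were at least 64.7-fold and 4.2-fold lower in IFNARKO cells. Csf2, the growth factor GM-CSF, was at least 7.52-fold higher. The granulocyte marker sum on the IFNARKO array with LPS was 13900, against 7307 to 13160 on the WT LPS arrays. Cxcl3 was above background on this array alone (63.5), and Cxcl5 reached 55.2 there with a detection p of 0.0104, just outside the limit.

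In order of level, Cxcl1 in macrophages ran from IFNARKO with LPS (14.06 log2) through WT with LPS at 1 and 3 h to p50KO with LPS at 1 h. The p50KO array with CpG at 3 h (10.38) and the WT array with LPS at 8 h (10.35) stood next to each other. With 1 array each, neighbours in this order cannot be told apart by a test.

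Genes of the pathways that induce these chemokines were listed beside them. With CpG, 0 of the 51 listed genes other than the members passed the test for a p50KO difference, beside 0.317% of all genes. By size the largest of these differences, none of which passed, were those of Cxcl10 (2.14 log2), Nfkbiz (1.31), Egr1 (1.25) and Il1b (1.16), higher in p50KO. The largest in the other direction was that of Fos (-0.94). With LPS 5 of the 51 passed, 2 higher and 3 lower in p50KO, beside 2.34% and 2.55% of all genes. Higher in p50KO cells were the interleukin Il1a (1.03 log2, SE 0.18, limma adjusted p = 0.0128) and the prostaglandin synthase Ptgs2 (0.93, SE 0.15, limma adjusted p = 0.0096). Lower were the NF-kB inhibitor Nfkbia (-1.21, SE 0.17, limma adjusted p = 0.00651), the repressor Atf3 (-0.66, limma adjusted p = 0.0423) and Zfp36 (-1.41, SE 0.17, limma adjusted p = 0.00254), whose protein tristetraprolin binds AU-rich elements and speeds the decay of such messages. The median difference with LPS was -0.31 log2 over 14 transcription regulators and 0.21 over 10 mRNA stability regulators, against -0.03 over all genes tested. Without the arrays labelled LPS 1 h, 9 of the 51 passed with LPS, beside 4.79% of all genes, and 4 of the 5 calls were among them. Atf3 no longer passed (-0.53 log2, limma adjusted p = 0.13). The 5 further calls were Nfkb2 (-2.05 log2, limma adjusted p = 0.000405), Bcl3 (-1.43, limma adjusted p = 0.0157), Il6 (-1.10, limma adjusted p = 0.00517) and Lcn2 (-3.81, limma adjusted p = 0.0241), lower in p50KO, and Zfp36l1 (1.22, limma adjusted p = 0.0404), higher. With IFNb 0 of 51 other listed genes passed, beside 0.0327% of all genes.

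Most of the listed genes rose with LPS, in fits where response and array series are partly mixed, as given above. At 1, 3 and 8 h, 26, 33 and 36 of the 51 other listed genes rose in macrophages and 0, 3 and 3 fell, when 3.66%, 17.4% and 19.6% of all genes rose. Among the inducing cytokines Tnf rose by 5.98 log2 (limma adjusted p = 9.83e-08) and Il1b by 6.24 (limma adjusted p = 3.75e-07) at 1 h. Among the NF-kB regulators the inhibitor gene Nfkbiz, whose product IkB-zeta is a nuclear cofactor of NF-kB, rose by 5.92 log2 at 1 h (limma adjusted p = 5.76e-07). The median response at 1 h was 1.94 log2 over the 14 transcription regulators and 1.75 over the 11 other neutrophil recruitment factors. With CpG, when 0.131% and 0.415% of all genes rose, 7 of the 51 rose at 3 h and 9 at 8 h, Tnf by 2.95 log2 (limma adjusted p = 0.000658) and 3.24 log2 (limma adjusted p = 0.000131). With IFNb at 3 h, when 0.546% of all genes rose, 4 of the 51 rose, among them Cxcl10 by 6.25 log2 (limma adjusted p = 0.0016) and the monocyte attractant Ccl2 by 1.24 log2 (limma adjusted p = 0.0452).

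The genes whose levels ran most alike with the 2 chemokines in macrophages included known NF-kB targets. Over the 23 arrays Cxcl1 correlated best with Cxcl2 (Pearson r = 0.95), Nfkbiz (0.95), Tnfaip3 (0.95), Tnfaip2 (0.94) and Tnf (0.93). For Cxcl2 the order was Tnfaip3 (0.98), Nfkbiz (0.98), Tnf (0.98), Socs3 (0.96) and Cxcl1 (0.95). Tnfaip3 encodes the ubiquitin-editing inhibitor A20 of NF-kB signalling, and Socs3 an inhibitor of cytokine receptor signalling. The arrays share agents and times, so these values describe likeness and carry no test.

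In fibroblasts LPS was followed by high levels of all 3 chemokines in both genotypes, and each was higher at 8 h than at 1 h. Cxcl1 was present before stimulation, with an intensity of 374 in p50KO cells, against 463 and 754 on the 2 WT arrays. With LPS for 1, 3 and 8 h it had 9954, 16310 and 27370 in p50KO cells and 9685, 31780 and 29150 in WT cells. In WT cells 3 and 8 h were close to each other. The genotypes were close at 1 and 8 h, and at 3 h p50KO was 1.79-fold lower on the normalized scale. The response to LPS passed at each time, with rises of 4.51, 5.76 and 5.99 log2 at 1, 3 and 8 h (SE 0.38 each, limma adjusted p = 0.0149, 0.000799 and 0.000412, 2 arrays with LPS and 3 without). Of all genes 0.176%, 4.7% and 12% passed at these times in either direction.

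Cxcl2 was below background in unstimulated fibroblasts of both genotypes, with 34.9 in p50KO cells and 49.9 and 48.9 on the WT arrays. With LPS for 1, 3 and 8 h it had 1913, 2649 and 6610 in p50KO cells, against 628, 1323 and 3223 in WT cells. At each time p50KO was higher, by 3.33-fold, 2.27-fold and 2.31-fold. Its inductions were at least 56.9-fold, 88.3-fold and 208-fold in p50KO cells and at least 8.51-fold, 19.4-fold and 44.6-fold in WT cells. The lowest signal above background, which sets these bounds, was 5.02 log2 on the unstimulated p50KO array and 6.03 on the WT array, so the bounds of the genotypes are not set against each other. Over both genotypes Cxcl2 rose by 5.30, 6.21 and 7.43 log2 (SE 0.40 each, limma adjusted p = 0.0104, 0.000689 and 0.000246).

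Cxcl5, which fibroblasts and epithelial cells secrete, showed the largest difference between the genotypes among the 3. Its intensity in p50KO fibroblasts was 391 unstimulated and 1191, 4586 and 6990 with LPS for 1, 3 and 8 h. In WT fibroblasts of the same series it was 69.0 unstimulated and 96.4 at 1 h, neither above background, and 825 and 1980 at 3 and 8 h. Every p50KO value lay above the WT value of its time. How many other genes did the same was not counted, and 25.6% of all genes were called higher in p50KO fibroblasts over the matched conditions. With LPS the p50KO level was at least 14.1-fold that of WT at 1 h, 6.49-fold at 3 h and 4.02-fold at 8 h. Over the unstimulated array of its genotype and series Cxcl5 stood 3.24-fold, 13.9-fold and 20.0-fold higher in p50KO cells. In WT cells it stood at least 11.8-fold higher at 3 h and 27.4-fold at 8 h. The WT values are bounds and depend on the unstimulated WT array used, so the inductions of the genotypes are not set against each other. Over both genotypes the rise passed at 8 h (4.39 log2, SE 0.85, limma adjusted p = 0.0239), while 3.51 log2 at 3 h and 0.53 at 1 h did not (limma adjusted p = 0.0809 and 0.928).

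The unstimulated WT fibroblast arrays differed from each other in Cxcl5, so the size of its unstimulated difference depends on the array used. The array of the IFNb series read 212 and stood above background, against 69.0 on the array of the LPS series, which was not above background, a difference of at least 2.78-fold on the normalized scale. For Cxcl1 the difference between these arrays was 2.33-fold, and 16.3% of genes differed at least 2-fold between them. Unstimulated p50KO fibroblasts had at least 2.46 log2 more Cxcl5 than the array of the LPS series, and 0.98 log2 more than that of the IFNb series. The macrophage marker sum over 4 genes was 10790 on the unstimulated WT array of the IFNb series and 5246 on that of the LPS series, and its part in the difference was not tested.

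**Figure D4:**
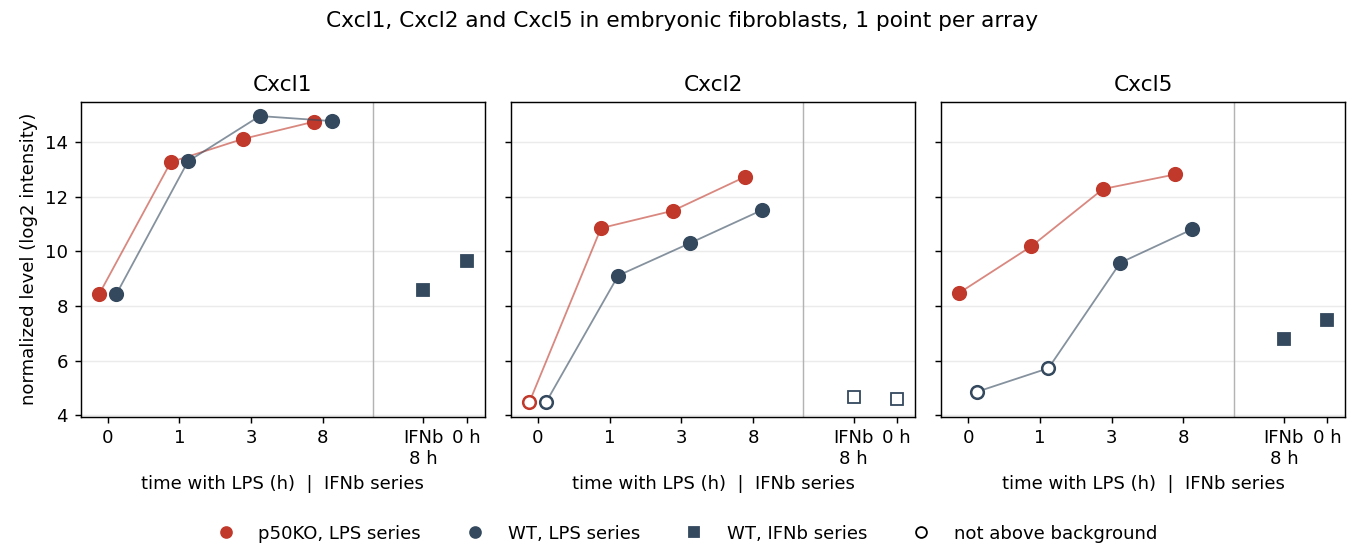
Normalized level (log2 intensity, vertical axis) of Cxcl1, Cxcl2 and Cxcl5 in embryonic fibroblasts against time with LPS, 1 point per array, p50KO left of WT, with the 2 WT arrays of the IFNb series as squares at the right. Open points were not above background. Cxcl1 lies close together in both genotypes except at 3 h, Cxcl2 lies higher in p50KO at each LPS time, and Cxcl5 lies higher in p50KO at all 4 times.

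Over the 4 matched conditions p50KO fibroblasts had more Cxcl5 and Cxcl2 than WT fibroblasts, and Cxcl1 did not pass the test. The difference was 2.82 log2 for Cxcl5 (SE 0.63, limma adjusted p = 0.011), 0.93 for Cxcl2 (SE 0.29, limma adjusted p = 0.0365) and -0.39 for Cxcl1 (SE 0.28, limma adjusted p = 0.275), from 4 p50KO and 5 WT arrays. These 2 calls of 3 stand against a background in which 54.5% of all genes passed, 25.6% of all genes being higher and 28.9% lower in p50KO. By size the difference of Cxcl5 ranked at place 133 of 9109 among those higher in p50KO. The call of Cxcl5 held under all 12 alternatives (limma adjusted p from 0.000184 to 0.0444), and that of Cxcl2 under 6 of 12 (limma adjusted p from 0.00836 to 0.123). The p50KO arrays had more probes above background than the WT arrays, as given above, and the part of this in the differences was not tested. Of the 10 fibroblast markers 4 were called higher and 2 lower in p50KO, beside the 54.5% of all genes that passed. The largest of these differences were those of Col3a1 (3.11 log2, SE 0.49, limma adjusted p = 0.00357), Postn (2.43, limma adjusted p = 0.0295) and Col1a2 (2.10, limma adjusted p = 0.011), higher in p50KO. Next by size was Thy1 (-1.20, limma adjusted p = 0.0245), lower in p50KO. The summed intensity of the 10 markers was 34940 to 40090 on the p50KO arrays and 30200 to 63600 on the WT arrays, which overlapped. The part of these markers in the Cxcl5 and Cxcl2 differences was not tested. Macrophage marker sums were 2755 to 3893 on the p50KO LPS arrays and 3340 to 4842 on the WT LPS arrays, which overlapped too. Most of these sums was Lyz2, whose p50KO difference was -0.59 log2, against 1.08 log2 for Adgre1, and neither passed.

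Interferon beta for 8 h gave no higher level of any of the 3 in WT fibroblasts. Cxcl1 had 440 with IFNb and 754 without, and Cxcl5 had 159 with IFNb and 212 without, which was 0.483-fold and 0.614-fold on the normalized scale. Cxcl2 was at background on both arrays, with 52.0 and 48.9. With 1 array each these values have no test, and 4.09% of genes were at least 2-fold higher with IFNb.

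The time courses of the 2 cell types went different ways in WT cells. With LPS the WT fibroblast level at 8 h was 2.77-fold that at 1 h for Cxcl1 and 5.24-fold for Cxcl2, whereas in WT macrophages both were lower at 8 h than at 1 h, as given above. In p50KO fibroblasts these ratios were 2.79-fold and 3.65-fold. Cxcl5 at 8 h was 6.18-fold its 1 h level in p50KO fibroblasts. The Cxcl1 and Cxcl2 probes differ between the array types and the cell types were normalized apart, so only ratios within a cell type are set side by side. The direction of the p50KO difference for Cxcl2 with LPS at 1 h was higher in fibroblasts (1.73 log2) and lower in macrophages (-1.32 log2), and this contrast was not tested. The macrophage sign rests on the p50KO array labelled 1 h, whose 12.42 log2 lay slightly above the 12.20 of the WT array labelled 3 h.

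Of the 52 other listed genes measured in fibroblasts, 5, 25 and 29 rose with LPS at 1, 3 and 8 h and 0 fell, when 0.176%, 3.12% and 6.44% of all genes rose. Tnf rose by 5.40 log2 at 1 h (limma adjusted p = 0.00185), and Il1b by 8.46 log2 at 8 h (limma adjusted p = 0.000134). Between the genotypes 12 of the 52 were higher and 12 lower in p50KO, beside the 54.5% of all genes that passed. The largest differences among them were those of Nfkbia (4.05 log2, SE 0.41, limma adjusted p = 0.0011), the Toll-like receptor adaptor Myd88 (1.88, SE 0.19, limma adjusted p = 0.00109) and the AU-rich element binding factor Zfp36l1 (1.62, SE 0.28, limma adjusted p = 0.00474), all higher in p50KO. Lower in p50KO were Cebpb (-1.35, limma adjusted p = 0.00932), the NF-kB inhibitor gene Nfkbie (-1.18, limma adjusted p = 0.00423) and the interleukin 1 receptor gene Il1r1 (-1.09, limma adjusted p = 0.00191).

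In fibroblasts the levels of Cxcl1 ran most alike with Tnf (Pearson r = 0.98), Tnfaip3 (0.97), Ier3 (0.97), Cxcl2 (0.97) and Ccl3 (0.96) over the 10 arrays. Those of Cxcl2 ran most alike with Tnfaip3 (0.98), Clec4e (0.97), Cxcl1 (0.97), Sf3b1 (0.96) and Tnf (0.95). Cxcl5 had another set, Olfr873 (0.98), Tbx3 (0.97), Ppme1 (0.97), Arrdc3 (0.96) and Olfr194 (0.95), none of which was in the lists of Cxcl1 or Cxcl2. Its correlation was 0.70 with Cxcl1 and 0.79 with Cxcl2. These arrays too share agents and times, and the values carry no test.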

How the data were processed

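RNA was measured on 33 Illumina MouseRef-8 arrays, and groups were taken from the labels. The authors deposited bead intensity values that they call non-normalized, and, per the file headers, a detection p-value beside each. Whether background had been subtracted before is not stated there. The submitters' processing notes name BeadStudio with no version given. A second set of intensity values, normalized by the authors in a way not given in the sources used here, served as an alternative. In the macrophage file 8 lines were empty, and 14 fibroblast probes without a normalized value were not used.

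Background was corrected by normexp with an offset of 16 (nec in limma), then quantile normalization and log2 were applied to the 25697 BMDM probes and, apart from them, to the 24599 MEF probes. Genes were named by the array's annotation, with symbols brought up to date by gene ID in RefSeq (GRCm38.p6). A single symbol was given to 23978 BMDM probes, several to 0 and none to 1719, and in MEF these numbers were 20974, 1 and 3624. A gene was given by its brightest probe and tested where the detection p was under 0.01 on at least 2 arrays. The number of arrays limits the precision.

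Contrasts were tested in limma by moderated statistics, two-sided, from lmFit followed by eBayes. P-values were adjusted by the Benjamini-Hochberg method across every gene tested, and an adjusted p under 0.05 was a call. Responses were fitted over p50KO and WT arrays with condition and genotype as terms, and IFNARKO arrays and IFNb in MEF were left out of the fits. The p50KO difference was fitted per agent in BMDM and over 4 conditions in MEF. A level not above background is bounded as "at least N-fold" by the lowest normalized signal above background on that array, or by its own signal where that was higher.

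The members, the gene lists and the rule for named genes were chosen with earlier results of these data known. Named were the members, the 5 genes most alike in level, up to 10 genes at least 2-fold higher in p50KO with CpG and lower with LPS, and up to 4 genes of a list per contrast. One gene that this rule names is not reported here. The lists were the chemokine cluster, neutrophil chemokine receptors (none of them tested in either cell type), inducing signals and receptors, transcription regulators, mRNA stability regulators, other recruitment factors, interferon-type chemokines, and markers of macrophages, granulocytes, fibroblasts, epithelial and endothelial cells and lymphocytes. The model code was tested on simulated data. Fits used limma 3.58.1 in R 4.3.3. Figures used matplotlib 3.10.9, pandas 2.3.3 and numpy 2.4.6 in Python 3.11.15.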

Additional observations from a re-analysis of the deposited data

Results flagged for a closer look

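The p50KO minus WT difference of Cxcl1 in macrophages took opposite signs with the 2 Toll-like receptor agents. With CpG it was positive at all 3 times, with a mean of 3.74 log2, and with LPS it was negative at all 3 times, with a mean of -2.13 log2. The difference between the agents was not tested, and Cxcl1 was picked for it. The CpG and LPS arrays come from different array series, so agent and series cannot be told apart here. No group had the 4 arrays needed to look for an outlying array.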

How the results depend on the processing

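Of 467 values recomputed under alternatives, 385 tests kept their side of the threshold, 20 lost the call and 4 gained one. The 385 include tests that passed in neither version and changed sign, such as Cxcl2 with IFNb at 1 h in macrophages (-0.81 to 0.02 log2). Of the values with no test 55 stayed within 1 SD, 2 moved further and 1 changed sign. The p50KO difference of Cxcl1 in macrophages ran from 3.22 to 3.92 log2 with CpG and from -2.97 to -1.61 with LPS, moving by more than 1 SD with CpG without background correction (3.22) and with the authors' normalized values (3.36). That of Cxcl2 with LPS turned to -0.33 without the 8 h arrays. In limma, Cxcl2 at CpG 8 h lost its call without background correction (3.24, adjusted p = 0.0509), with the authors' values (3.43, 0.05), without the detection filter (3.97, 0.114), with the array series as a block (3.698, 0.0842) and without either unstimulated WT array (3.698 to 3.87), and Cxcl1 at LPS 1 h with that block (7.63, 0.0823). Cxcl2 at CpG 3 h gained a call without the LPS arrays (3.10, 0.0467) and, in an alternative chosen after seeing the data, without the arrays labelled LPS 1 h (3.10, 0.0424). In fibroblasts the p50KO difference of Cxcl2 lost its call with 75th percentile centring (0.98), the authors' values (0.92), no detection filter (0.93) and without the 1, 3 or 8 h arrays (0.68, 0.85 and 0.84). Without the detection filter the LPS responses of Cxcl1 at 1 h (4.51), Cxcl2 at 1 h (5.30) and Cxcl5 at 8 h (4.39) lost theirs, as they did without the 3 h arrays (4.49, 5.31 and 4.38), and Cxcl1 at 1 h without the 8 h arrays (4.53). Cxcl5 at 3 h gained one with the authors' values (3.27) and without the unstimulated WT array of the IFNb series (4.26, adjusted p = 0.00174), its values without either unstimulated array running from 2.94 to 4.26. The cause was not tested.

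Counts of genes called moved by over 1.5 times in places. From lowest to highest, against the count reported, they were 0 to 1 for CpG at 1 h (0, with 55 at an unadjusted p under 0.05), 5 to 27 at 3 h (12) and 17 to 178 at 8 h (38). For IFNb they were 0 to 1197 at 1 h (0, with 1381 unadjusted), 3 to 1687 at 3 h (72) and 0 to 1633 at 8 h (9), the highest without the unstimulated WT array of the LPS and IFNb series. For LPS they were 119 to 2374 (983), 1229 to 4673 (3976) and 2795 to 4882 (4340) in macrophages, the lowest with the array series as a block, and 3 to 53 (16), 230 to 1748 (428) and 587 to 3314 (1095) in fibroblasts. For p50KO they were 1 to 97 with CpG (29), 8 to 694 with LPS (448), 0 to 15 with IFNb (3) and 3095 to 6783 in fibroblasts (4968). No paired analysis was possible because the labels give no replicate numbers and each genotype and condition has 1 array, apart from unstimulated WT cells with 2. Levels near background, such as Cxcl1 and Cxcl2 in unstimulated cells, are limited by signal over background.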
